A study of Danio rerio with 12 samples.

Results

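The genes maff and klf11b encode transcription factors usually counted with the early response family. Both read lower on every brain array from a real fight than on any array from isolated zebrafish, as did 8.92% of all probe sets. The 2 genes were taken as the probe sets whose platform gene symbol is maff or klf11b. This gave 1 probe set for each gene, 2 of the 15502 tested probe sets and 2 of 8793 named genes. They were chosen by their array values: those in winners and losers lay below those in isolated fish, while most early response genes lay above, so these differences are described here and not tested.

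The arrays measured RNA of whole brains from adult wild-type AB zebrafish in 4 groups of 3 arrays. Winners and losers had fought a real opponent, with the outcome named in the labels. Mirror fighters had fought their own reflection, which gives a fight without an outcome, and isolated fish had met no one. All groups shared an isolation of 5 days beforehand, and brains were collected after 30 min of the manipulation. The labels do not state whether an array held 1 brain or several, nor the sex of the fish, so the error given is the spread between arrays.

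Maff is one of the small Maf proteins, basic leucine zipper factors that bind DNA at Maf recognition elements but lack an activation domain of their own. Pairs of small Mafs repress those sites, whereas pairs of a small Maf with a CNC factor such as Nrf2 activate antioxidant genes there. In human cells MAFF is switched on by inflammatory cytokines and binds the promoter of the oxytocin receptor gene. Klf11 is a zinc finger repressor of the Sp/Klf family, first described in mammals as an early gene induced by transforming growth factor beta (TGF-beta), and it binds GC-rich promoters and recruits the Sin3 corepressor. Zebrafish carry a pair of klf11 genes, klf11a and klf11b.

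The probe set of maff was well lit on all arrays. Its intensity was 490, 477 and 570 on the winner arrays, 391, 396 and 594 on the loser arrays, 595, 663 and 668 on the mirror fighter arrays and 764, 732 and 797 on the isolated arrays. The isolated arrays were the highest and lay close together, the mirror fighter arrays came next without reaching them, and winners and losers were lowest. On the log2 scale the group means were 8.996 ± 0.14 in winners, 8.82 ± 0.34 in losers, 9.32 ± 0.09 in mirror fighters and 9.58 ± 0.06 in isolated fish (SD, n = 3 each). The highest reading after a real fight, 9.21 on loser array 3, stopped just under the lowest mirror fighter reading, 9.22 on array 1, so all 6 arrays from real fights lay below the other 6. In 4.23% of all probe sets the arrays are ordered in that way. Winners and losers overlapped with each other.

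The log2 difference of maff from isolated fish was -0.58 ± 0.17 in winners (SE from the limma fit, n = 3 arrays per group), a level 0.668 times that of isolated fish. In losers it was -0.76 ± 0.17, or 0.591 times the isolated level, and in mirror fighters -0.25 ± 0.17, or 0.839 times. Against mirror fighters, maff stood at -0.33 ± 0.17 in winners and -0.51 ± 0.17 in losers. Mirror fighters thus stood between real fighters and isolated fish, as in 17.0% of all probe sets. The gene was chosen for low winners and losers, so this place is no separate result. Loser arrays 1 and 2 made up the low end, and without loser array 3 the loser difference from isolated fish was -0.96.

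The probe set of klf11b was dim, with a mean log2 intensity of 4.82, under the 5.02 that bounds the dimmest 25% of probe sets. Its intensity was 15.4, 31.3 and 20.9 on the winner arrays, 20.0, 19.3 and 23.5 on the loser arrays, 32.4, 37.5 and 27.7 on the mirror fighter arrays and 32.7, 67.1 and 39.4 on the isolated arrays. Every array from a real fight lay under every isolated array, as in 8.92% of all probe sets. Even so, winner array 2 came within reach of isolated array 1. Isolated array 2 was far brighter than any other. The log2 means were 4.43 ± 0.51 in winners, 4.38 ± 0.15 in losers, 5.01 ± 0.22 in mirror fighters and 5.47 ± 0.54 in isolated fish (SD, n = 3 each). Mirror fighters overlapped with isolated fish and with winners, but not with losers.

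The log2 difference of klf11b from isolated fish was -1.04 ± 0.30 in winners (SE from the limma fit, n = 3 arrays per group), -1.08 ± 0.30 in losers and -0.45 ± 0.30 in mirror fighters. These are levels 0.488, 0.472 and 0.730 times that of isolated fish. Against mirror fighters, klf11b stood at -0.58 ± 0.30 in winners and -0.63 ± 0.30 in losers. The bright isolated array 2 weighed on these values: without it the difference from isolated fish was -0.73 in winners and -0.78 in losers, and only -0.15 in mirror fighters. Without winner array 1 the difference of winners from mirror fighters was -0.34. With 32 added to each intensity before log2, which damps dim signals, klf11b stood at -0.51 in winners and -0.54 in losers against isolated fish.

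**Figure D1:**
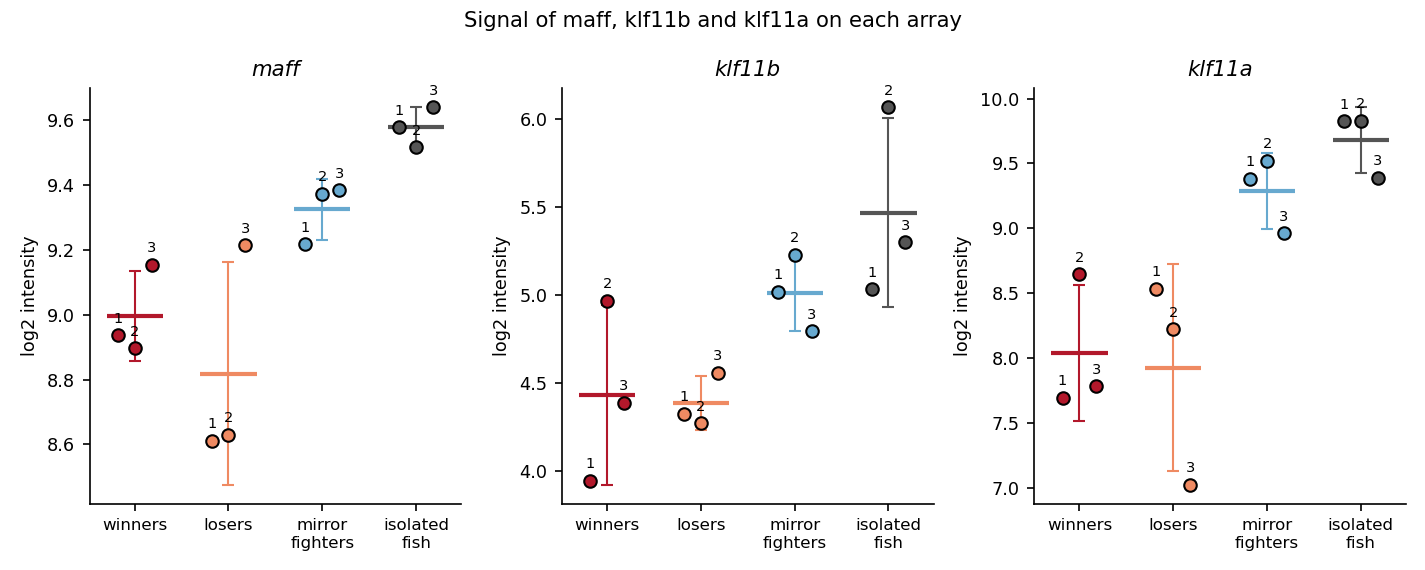
Log2 intensity of maff, klf11b and the paralog klf11a on each of the 12 arrays, numbered by replicate, with the group mean as a bar and the SD as a whisker (n = 3 per group). For maff the arrays of winners and losers all lie under those of mirror fighters and isolated fish, while for klf11b mirror fighters overlap with winners.

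Both genes had the same order of group means, isolated fish above mirror fighters above winners above losers, an order that 10.1% of all probe sets share. All winner and loser arrays lay under all isolated arrays in both genes, as in 8.92% of all probe sets. Over all probe sets, arrays lay apart with the lower values after the fight at 13.2% for winners and 15.3% for losers against isolated fish, and at 11.7% for winners and 14% for losers against mirror fighters. Mirror fighters lay wholly under isolated fish for maff but not for klf11b, as at 5.78% of all probe sets. Limma, which fits 1 model to all probe sets, called 0.245% of them between winners and isolated fish and 0.568% between losers and isolated fish at a Benjamini-Hochberg adjusted p under 0.05. Of maff and klf11b 0 were among these, a count from which nothing is read, since the pair was chosen on these differences.

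Winners and losers were compared with each other to ask whether the outcome of a real fight bears on the pair. The genes were not chosen on this difference. They were, however, chosen for low values on both groups of arrays, so the comparison is not wholly free of that choice. The level of maff was 8.996 ± 0.14 in winners and 8.82 ± 0.34 in losers, a log2 difference of 0.18 ± 0.17 (SE, n = 3) with a 95% interval of -0.20 to 0.55 and an adjusted p of 0.9997 by limma (unadjusted p = 0.316). For klf11b the difference was 0.05 ± 0.30, with an interval of -0.61 to 0.71 and an adjusted p of 0.9997 by limma (unadjusted p = 0.873). Both 95% intervals included 0, and they still allow a change of up to 0.55 for maff and 0.71 for klf11b. Limma called 0% of all probe sets in this comparison, with 642 at an unadjusted p under 0.05. The sign of the klf11b difference turned without loser array 2 (-0.01) or without winner array 2 (-0.22), and that of maff did not turn without any 1 array (0.07 to 0.38).

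**Figure D2:**
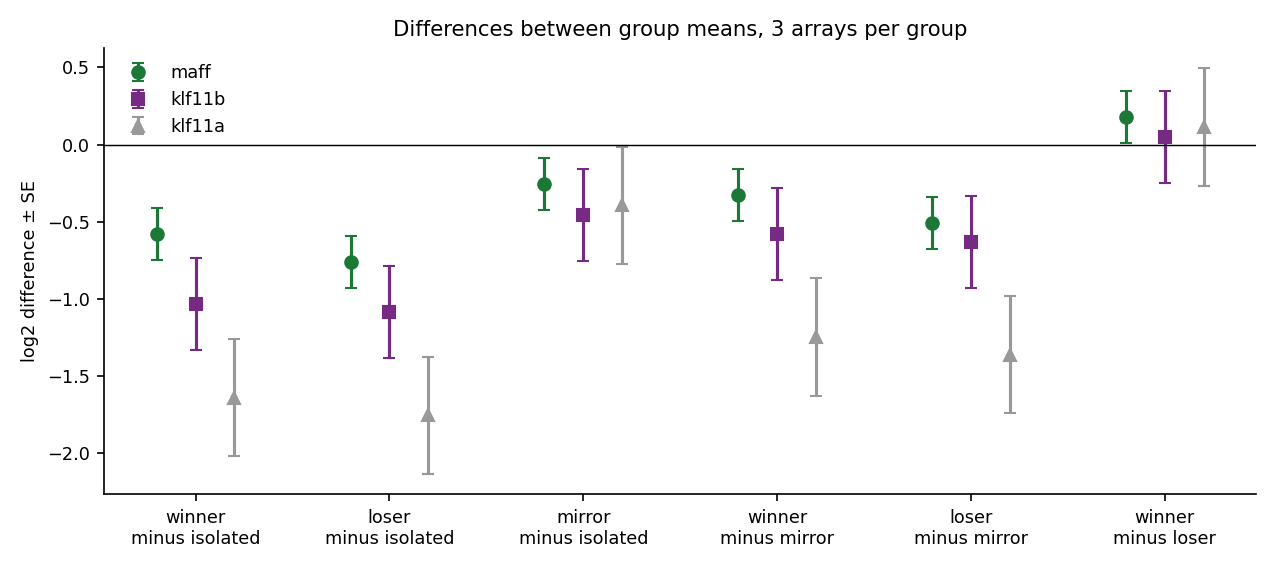
Log2 differences between group means for maff, klf11b and klf11a, with the standard error from the limma fit (n = 3 arrays per group). The differences of winners and losers from isolated fish lie below 0 for the 3 genes, from -0.58 for maff to -1.75 for klf11a, and the winner minus loser differences lie near 0.

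The paralog klf11a, which was not among the chosen genes, has a well lit probe set and stood further below isolated fish than klf11b in winners and losers, though not in mirror fighters. Its intensity was 207, 400 and 220 on the winner arrays, 371, 299 and 130 on the loser arrays, 666, 734 and 498 on the mirror fighter arrays and 907, 910 and 670 on the isolated arrays. The 6 arrays from real fights again lay under the other 6, and loser array 3, the highest loser array for maff, was the lowest of all for klf11a. The log2 difference of klf11a from isolated fish was -1.64 ± 0.38 in winners (SE, n = 3), or 0.321 times the isolated level, with an adjusted p of 0.111 by limma. In losers it was -1.75 ± 0.38, or 0.296 times, with an adjusted p of 0.0714 by limma, and in mirror fighters -0.39 ± 0.38 with an adjusted p of 1.00. Thus klf11a did not pass over all probe sets, although in losers it passed under 4 of the 22 alternative settings (adjusted p from 0.0344 to 0.387 over all of them). Whether the probes of one klf11 gene also bind the transcript of the other was not tested.

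The pair klf11a and klf11b had a Pearson correlation of 0.78 over the 12 arrays, and maff correlated at 0.71 with klf11b and at 0.56 with klf11a. The arrays share their group differences in these values. Of the deviations from the group means, those of maff and klf11b correlated at 0.03, those of klf11a and klf11b at 0.29, and those of maff and klf11a at -0.84. Single arrays, left out after seeing the data, weighed on these values. Without loser array 3, high for maff and low for klf11a, they were -0.30 for maff and klf11b, 0.68 for klf11a and klf11b, and -0.54 for maff and klf11a. Without winner array 2 they were 0.21, -0.0087 and -0.86 in the same order, so the value for klf11a and klf11b hangs on single arrays.

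Of the other Maf factors 2 were measured, the large Maf genes mafaa and mafbb, which carry an activation domain. By limma 0 of these 2 passed in winners, losers or mirror fighters against isolated fish. Of all probe sets, 0.245% passed in winners, 0.568% in losers and 0% in mirror fighters. At such shares, 0 calls say little about lists as short as this one and those that follow. In winners mafbb, known in mammals for macrophages and hindbrain patterning, stood at -0.44 ± 0.22 and the dim mafaa at 0.49 ± 0.20 from isolated fish, on either side of 0. Losers had -0.28 ± 0.22 for mafbb and -0.28 ± 0.20 for mafaa. The winner minus loser difference of mafaa was 0.77 ± 0.20 (adjusted p = 0.867 by limma).

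The list of CNC and Bach partners of small Mafs, which also holds the Keap1 genes, gave 5 probe sets of 4 genes. These were nfe2, nfe2l2a, nfe2l3 and keap1a, so no Bach gene was measured. By limma 0 of 5 passed in winners, losers or mirror fighters against isolated fish, beside 0.245%, 0.568% and 0% of all probe sets. The brighter probe set of nfe2l2a, the zebrafish Nrf2 gene, stood at -0.57 ± 0.22 in winners, -0.41 ± 0.22 in losers and -0.44 ± 0.22 in mirror fighters, and its other probe set at 0.11 ± 0.23, -0.22 ± 0.23 and -0.55 ± 0.23. The 2 probe sets of this gene thus differed in sign in winners. The erythroid factor gene nfe2 stood at 0.13 ± 0.21 in winners and 0.26 ± 0.21 in losers, and keap1a, which encodes the sensor that holds Nrf2 back, at 0.04 in winners and -0.07 in losers.

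The antioxidant and metabolic genes known as Nrf2 and Maf targets gave 24 probe sets of 20 genes. Against isolated fish 0 of 24 passed in winners or losers, beside 0.245% and 0.568% of all probe sets. Their median log2 difference was -0.22 in winners (18 below 0, 3 at an unadjusted p under 0.05) and -0.25 in losers (19 below 0, 10 at an unadjusted p under 0.05), beside medians of 0.01 in winners and -0.01 in losers over all probe sets. An unadjusted p under 0.05 was reached by 19.6% of all probe sets in winners and 21.2% in losers. In mirror fighters the median was -0.01, with 12 of 24 below 0. The largest shift belonged to nqo1, a quinone reductase, at -1.12 ± 0.41 in winners (adjusted p = 0.187 by limma) and -1.24 ± 0.41 in losers (adjusted p = 0.136 by limma). The peroxiredoxin gene prdx1 stood at -0.44 ± 0.16 in winners and -0.47 ± 0.16 in losers on the probe set with the smallest p, while taldo1 of the pentose phosphate pathway stood at 0.51 ± 0.18 in losers.

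Beside klf11b, 11 Klf genes were measured with 1 probe set each. In winners, losers or mirror fighters 0 of 11 passed against isolated fish, beside 0.245%, 0.568% and 0% of all probe sets. Their median log2 difference was 0.19 in winners, -0.02 in losers and -0.02 in mirror fighters, with both signs in each group, so the family had no common direction. After klf11a, the lowest values in losers were those of klf7b, a gene of the group that guides neuronal outgrowth in mammals, at -1.23 ± 0.25 (adjusted p = 0.0634 by limma), against -0.29 ± 0.25 in winners. At the other end, the glucocorticoid-induced klf9 stood at 2.24 ± 0.73 in winners, 2.56 ± 0.73 in losers and 2.47 ± 0.73 in mirror fighters. The adjusted p by limma was 0.161, 0.108 and 0.990 in the same order. Its winner arrays lay far apart, with intensities of 547, 222 and 2388. The closest relative of klf11 in mammals, klf10, was dim and stood at 0.66 in winners and 0.22 in losers.

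**Figure D3:**
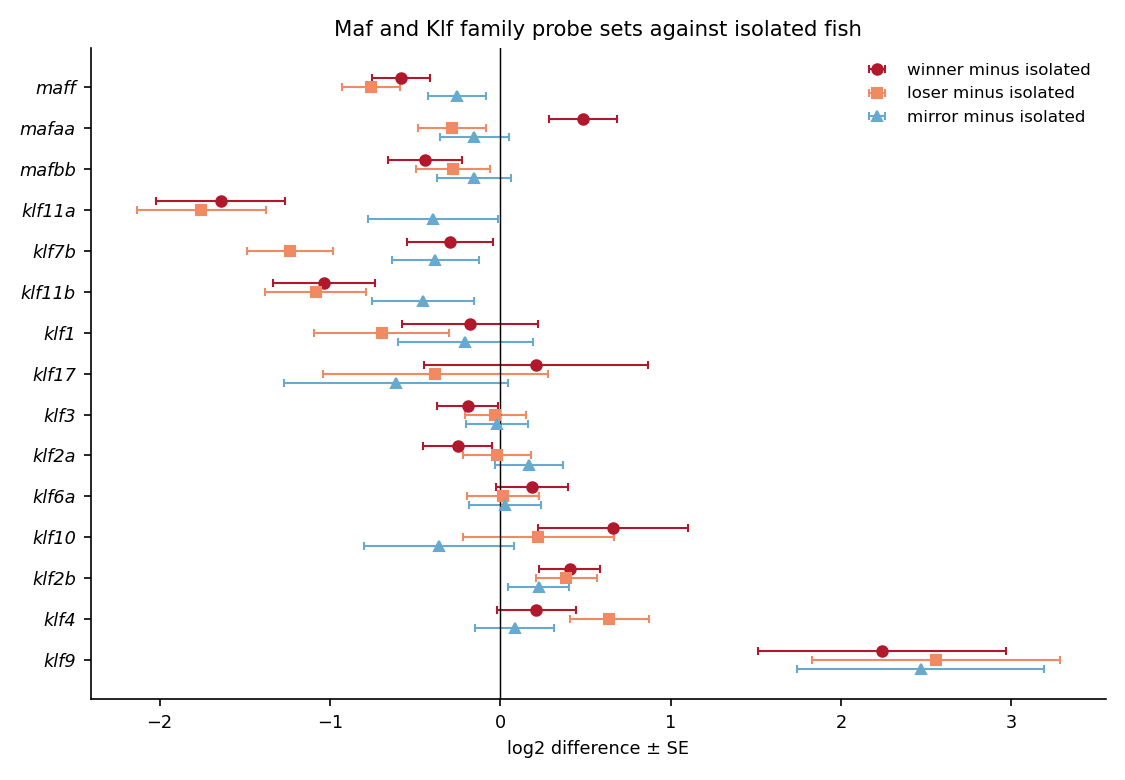
Log2 differences from isolated fish with the standard error (n = 3 arrays per group) for the Maf and Klf genes measured, in winners, losers and mirror fighters. maff and both klf11 genes lie below 0 in the 3 groups, the other Klf genes lie on both sides of 0 and klf9 lies above 2.

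The Sp factors and the Sin3 corepressor complex, which Klf11 recruits in mammals, gave 16 probe sets of 14 genes. Of these 16, 0 passed in winners, losers or mirror fighters against isolated fish, beside 0.245%, 0.568% and 0% of all probe sets. The corepressor scaffold gene sin3aa stood at 0.23 in winners and 0.17 in losers, and the list median was 0.15 in winners and -0.11 in losers. The smallest p-value in losers belonged to sp8b, a forebrain factor gene, at -0.77 ± 0.16 (adjusted p = 0.0619 by limma), against -0.42 ± 0.16 in winners. The complex subunit gene sap18 stood at -0.44 ± 0.16 in winners and -0.42 ± 0.16 in losers, and the dim sp7 at 1.16 ± 0.36 in winners and 1.21 ± 0.36 in losers.

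The TGF-beta pathway, upstream of klf11 in mammals, gave 23 probe sets of 20 genes. Of these 23, 0 passed in winners, losers or mirror fighters against isolated fish, beside 0.245%, 0.568% and 0% of all probe sets. The list median was 0.00 in winners, -0.01 in losers and -0.03 in mirror fighters. Members with the smallest p-values differed in sign. The receptor gene tgfbr2b stood at -0.65 ± 0.19 both in winners and in losers on its brighter probe set, and the TGF-beta-induced matrix gene tgfbi at -0.83 ± 0.20 in winners and -0.95 ± 0.20 in losers. The corepressor gene skia stood at 0.66 ± 0.22 in winners and 0.67 ± 0.22 in losers, and the growth factor gene ccn2a, a TGF-beta target in mammals, at 0.65 ± 0.16 in losers (adjusted p = 0.0855 by limma).

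Other basic leucine zipper genes, among them the PAR factors of the circadian output, gave 15 probe sets of 11 genes. Against isolated fish 0 of 15 passed in winners, losers or mirror fighters, beside 0.245%, 0.568% and 0% of all probe sets. One probe set of tefa stood at -0.83 ± 0.26 in winners, -0.92 ± 0.26 in losers and -0.76 ± 0.26 in mirror fighters. The brighter probe set of the repressor gene nfil3-6 stood on the other side of 0, at 0.89 ± 0.20 in winners and 1.05 ± 0.20 in losers (adjusted p = 0.0532 by limma), and its other probe set at 0.16 ± 0.31 in winners and -0.24 ± 0.31 in losers.

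Most early response genes stood on the other side of 0 from maff and klf11b, with 50 of 67 probe sets above 0 in winners and 51 in losers. These 67 probe sets of 50 early response genes leave out the chosen pair. By limma 16 of them rose in winners, 19 rose in losers and 0 fell against isolated fish. Limma called 0.187% of all probe sets higher and 0.0581% lower in winners, and 0.258% higher and 0.31% lower in losers. That most of these genes rise was part of how the pair was chosen, and the list was set with earlier results known. The counts therefore describe the list and are no separate result. The list median was 0.50 in winners and 0.48 in losers. With only the arrays of the groups compared, 2 probe sets passed in winners and 11 in losers. With the level of the spiked hybridization controls as a covariate, 0 passed in either group. That level separates real fights from isolated fish, so the fit leaves little of the group difference to estimate and nothing is read from this 0. The rises common to both groups were those of the neuronal activity gene npas4a, the AP-1 subunit genes fosab and junba, nr4a1, egr2a, egr2b and egr4, the kinase genes sik1 and pim1, btg2, gadd45ba, socs3a and the neurotrophin gene bdnf, and dusp2, dusp5 and egr1 passed in losers.

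Set among these 67 probe sets, klf11b had the lowest log2 difference of 69 in winners and the second lowest in losers. Below it in losers was a dim probe set of srfa (-1.15, while the other srfa probe set, also dim, stood at 0.72). In the same ranking maff was number 4 from the bottom in winners and 5 in losers. These places follow from how the pair was chosen and are no separate result. The neighbours of the pair at the low end were pim2 (-0.86 in winners and -0.78 in losers) and 1 probe set of rgs2, a regulator of G protein signalling. That probe set stood at -0.68 in winners and -0.79 in losers, and the other rgs2 probe set at -0.40 and -0.31. Neither gene passed. In mirror fighters the list median was 0.05 and the pair stood at -0.25 for maff and -0.45 for klf11b.

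**Figure D4:**
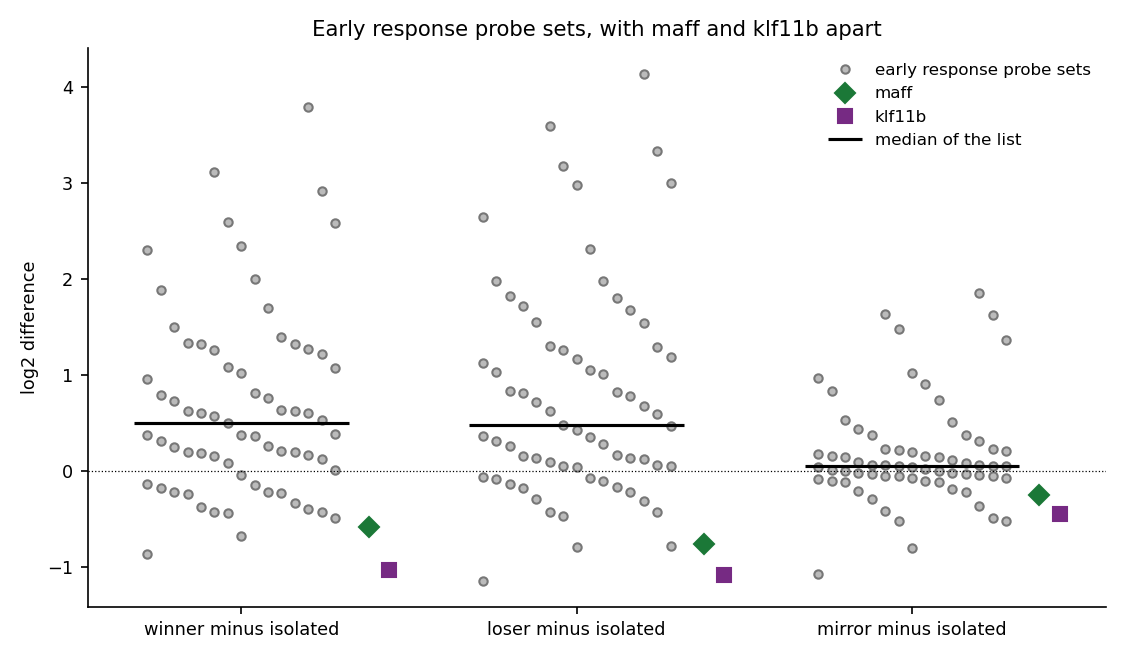
Log2 differences from isolated fish of 67 early response probe sets (grey circles, with their median as a line) in winners, losers and mirror fighters, with maff and klf11b beside them. The pair, chosen for lying low there, is at the low end in winners and losers, where the list medians are 0.50 and 0.48.

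The genes most like maff over the 12 arrays, among 7110 other named genes that were not dim, were zbtb14, a zinc finger repressor (Pearson r = 0.96), maf1a, a repressor of RNA polymerase III that is no relative of the Maf factors (0.96), the vesicle sorting gene vipas39 (0.95), the lysosomal membrane gene tmem106ba (0.94) and the dehydrogenase gene dhrs12 (0.94). They were picked for likeness to a gene that was itself picked, so their differences are given as values. The second of them, maf1a, averaged 9.17 in winners, 9.12 in losers, 9.59 in mirror fighters and 9.71 in isolated fish, in the same order as maff. The difference of dhrs12 from isolated fish was -0.91 in winners, -1.11 in losers and -0.62 in mirror fighters. With the group means taken out, the likeness to maff was highest for vipas39 (0.96), ucp1 (0.94), gid8b (0.92), si:ch211-107o10.3 (0.92) and the deadenylase gene cnot8 (0.91), so vipas39 stood on both lists.

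For klf11b the most alike were the epithelial factor gene grhl1 (0.93), the endosomal sorting gene vps36 (0.92), mbd3a, which encodes a methyl-CpG binding domain protein of the NuRD complex (0.91), the fucosidase gene fuca2 (0.91) and jpt2 (0.91), among 7111 genes. Of these, fuca2 had the widest differences from isolated fish, -1.11 in winners and -1.20 in losers, on its brighter probe set, while its other probe set stood at 0.30 and 0.62. In deviations from the group means the closest were znf384b (0.91), vps36 (0.91), actb2 (0.90), grhl1 (0.89) and map1lc3a (0.89). All these correlations are over 12 arrays that share their groups, and the highest of so many values over so few arrays are large by selection.

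Spiked controls differed between the arrays of real fights and the others. The 14 hybridization control probe sets had a mean log2 intensity of 9.99 to 10.8 on the winner and loser arrays. On the mirror fighter and isolated arrays it was 9.27 to 9.51. These levels lay 2.05-fold apart (two-sided exact permutation test over 924 splits, p = 0.00216, the smallest it can give). The 24 poly-A control probe sets split the same arrays, with mean log2 intensities of 6.95 to 7.21 against 6.25 to 6.78. These lay 1.43-fold apart (p = 0.00216 by the same exact permutation test). This split of the arrays is the one that orders maff and klf11a. Within arrays of like controls lie only the comparisons of winners with losers and of mirror fighters with isolated fish, in which maff differed by 0.18 and -0.25 and klf11b by 0.05 and -0.45. The mean of the hybridization controls, here the control level, was also used as a covariate. The difference of maff from isolated fish was then 0.13 in winners and -0.13 in losers. For klf11b it was -0.028 in winners and -0.19 in losers. The control level separates real fights from isolated fish, so this fit leaves little of the group difference to estimate. Nothing is read from these values. Controls and a real fight cannot be told apart here.

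Markers of the cells in a brain sample were read on the same arrays. Neuronal markers (23 probe sets of 15 genes) had a summed log2 intensity of 16.0 to 16.2 in winners, 16.0 in losers, 15.8 to 16.0 in mirror fighters and 15.7 to 16.1 in isolated fish, so the labelled tissue carried its defining markers. Microglia and leukocyte markers (29 probe sets of 22 genes), cells in which small Maf and mafb genes are active in mammals, summed to 11.3 to 12.9 in winners, 12.3 to 13.7 in losers, 12.8 to 13.4 in mirror fighters and 12.7 to 13.9 in isolated fish. In winners 25 of 29 and in losers 24 of 29 of these probe sets were counted below isolated fish, with medians of -1.16 and -0.46. In mirror fighters 23 of 29 were below, with a median of -0.53. Of all 15502 probe sets, 7594 lay below isolated fish in winners, 7882 in losers and 7629 in mirror fighters. By limma 0 of the 29 passed in each group, while 0.245% of all probe sets passed in winners, 0.568% in losers and 0% in mirror fighters. On all winner, loser and isolated arrays 1 of 4 probe sets of the neutrophil gene mpx lay at the floor. That probe set is counted as below in winners and losers, though its difference there is 0 but for rounding. Meningeal and connective tissue markers (25 probe sets) had medians of -0.28 in winners, -0.24 in losers and -0.11 in mirror fighters, with 0 passing. Of 12 endothelial probe sets 1 passed, a probe set of fli1 that fell in losers (-1.33, adjusted p = 0.0471 by limma) and stood at -1.18 in winners, while the other fli1 probe set stood at 0.36 in winners and 0.11 in losers. Of 11 erythrocyte probe sets 1 passed, the dim heme synthesis gene fech, which rose in winners (1.37, adjusted p = 0.0499 by limma) and in losers (1.80, adjusted p = 0.00929 by limma). The list did not rise with it. Its median was 0.11 in winners, with 5 of 11 below 0, and -0.07 in losers, with 7 of 11 below 0. In bulk RNA, fewer cells of a type and less RNA per cell cannot be told apart, and the part of these cells in the values of maff and klf11b was not tested.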

How the data were processed

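RNA from whole zebrafish brains, 100 ng per sample, was labelled and hybridized to one-colour Affymetrix zebrafish arrays, per the labels' protocols, which name 2 different RNA extraction methods. The deposited series table holds, for each array, linear intensity values by probe set that never go below a floor of 1. The authors' summary and normalization methods are not given in the sources used here, and Partek 6.6 is named without a role in the submitters' processing notes. All 12 arrays were used, and their number limits the precision.

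The log2 of each value was taken with no offset, and 115 control probe sets were left out. The platform annotation gave a single symbol to 10795 probe sets, several to 135 and none to 4572, and 10711 were given current names from the GRCz12tu gene table. Positions are not given, because the labels state no build.

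Group means were estimated together with limma 3.58.1 in R 4.3.3 over all 15502 probe sets, with Benjamini-Hochberg adjustment per contrast, and tested on simulated data. The SE of each difference comes from this fit, in which the groups share 1 moderated estimate of the spread per probe set. Spiked controls were tested by exact permutation in SciPy 1.17.1. Deviations from the group means correlated at 0.112, 0.111 and 0.233 between winner and loser arrays of the same number. A fit with the replicate number as a block was therefore tried. Between the other groups, arrays of the same number correlated at -0.046 to 0.211. The other alternatives were quantile normalization, centring on array medians, 32 added before log2, no dim probe sets, other moderation, 2 groups only, the control level as a covariate, averaged probe sets and each array left out, which for the correlations among maff, klf11b and klf11a was added after seeing the data.

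The chosen genes and the gene lists were set with earlier results of these data known. Named were every probe set of maff and klf11b, called list members and those with the smallest p in a list, up to 3, of which a selection is given, and for each gene the 5 most correlated named genes. Values given outside this rule were chosen after they were seen, namely those of keap1a, klf10 and sin3aa and of pim2, rgs2 and srfa, and second probe sets.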

Additional observations from a re-analysis of the deposited data

How the results depend on the processing

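Without the replicate block no call of maff or klf11b between winners and losers was made, and with the replicate block none was made either (0.18 for maff and 0.05 for klf11b, the same differences). With the control level as a covariate, maff stood at 0.13 in winners and -0.13 in losers against isolated fish and at 0.37 in winners and 0.11 in losers against mirror fighters, and klf11b at -0.028 and -0.19 against isolated fish and at 0.40 and 0.24 against mirror fighters. The cause was not tested, since the control level separates these groups. With 32 added, klf11b stood at -0.51 in winners and -0.54 in losers against isolated fish, an offset above most of its intensities. Without any 1 array, maff ranged from -0.66 to -0.53 in winners and from -0.96 to -0.66 in losers against isolated fish, from -0.41 to -0.28 in winners and from -0.70 to -0.40 in losers against mirror fighters, and from 0.07 to 0.38 between winners and losers. The ranges of klf11b were -1.30 to -0.73, -1.30 to -0.78, -0.85 to -0.34, -0.74 to -0.52 and -0.22 to 0.29 in the same order, and in mirror fighters against isolated fish -0.67 to -0.15. Being dim, klf11b has no value without the dimmest 25%. The winner minus loser difference of klf11a, 0.11, ranged from -0.34 to 0.42 without 1 array and was -0.022 with the covariate. The same gene passed in losers against isolated fish with 32 added (adjusted p = 0.0344), without dim probe sets (adjusted p = 0.0427), with trend and robust moderation (adjusted p = 0.0427) and with the replicate block (adjusted p = 0.0486), out of a range of 0.0344 to 0.387 over 22 settings. Early response calls were 2 in winners and 11 in losers with 2 groups only and 0 with the covariate in both. Between winners and losers, and between mirror fighters and isolated fish, 0 list members were called under each of the 22 settings. In losers against isolated fish, where 0 members of these lists passed, 2 Klf genes passed with 32 added, without dim probe sets and with trend and robust moderation, and 1 with the replicate block or without loser array 2. Likewise 1 Sp and Sin3 probe set passed without dim probe sets, 2 of the TGF-beta pathway with 32 added and 1 without dim probe sets or with trend and robust moderation, and 1 of the other basic leucine zipper genes under these 3 settings and without winner array 1 or 2. The cause was not tested.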
